A study of Mus musculus with 12 samples.

Results

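MIN6 cells, which derive from a mouse insulin-producing tumour and keep many traits of the β cell, were compared after long and short induction of miR-184. The late arrays were those of 48 and 72 hr of doxycycline and the early arrays those of 16 and 24 hr, 4 arrays each and 8 of the 12 arrays of the series, chosen by the induction time in their labels. Late and early cells alike carried the rtTA and tetO-184 plasmids, delivered overnight with lipofectamine, and received 1 µg/ml doxycycline, which lets the rtTA transactivator switch on the miR-184 construct. They therefore differed in the hours of doxycycline and also in any other aspect of time after transfection or in culture, which cannot be told apart here. The other 4 arrays were controls, 2 of transfected cells without doxycycline and 2 of cells that saw lipofectamine and doxycycline but no plasmid, and the labels give no harvest time for them. Transfection was transient, so that the share of cells carrying both plasmids was not known. The groups took the same places on both slides, 1 array each, and the effects of place and group therefore cannot be told apart either. The design text speaks of biological triplicates, while 2 arrays per time were analysed here, and p-values measure only the spread between these arrays.

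miR-184 is a miRNA of β cells, and no probe of the arrays is annotated to it, so that its induction was not measured. The mature strand is printed here because it is the molecule that the plasmids were built to express. Its seed, bases 2 to 8 from the 5′ end, stands in capitals. RefSeq places it on the minus strand of GRCm38.p6 at chr9:89802263-89802284.
mmu-miR-184-3p: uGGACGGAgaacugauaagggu

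A β cell makes large amounts of insulin in the endoplasmic reticulum (ER), where chaperones fold the protein and disulfide enzymes link its chains before vesicle coats carry it to the Golgi. Cells that face unfolded protein or a lack of amino acids react through several arms. In one, kinases phosphorylate the initiation factor eIF2α, most translation slows, and the transcription factor ATF4 raises genes of amino acid uptake and synthesis, of tRNA charging and of cell death. This arm is called the integrated stress response. In the others, ATF6 and XBP1 raise the ER chaperones and the machinery of protein export.

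Probes with a detection p-value under 0.01 on at least 2 of the 8 arrays were kept, and 11819 features were tested with limma, of which 9382 were named genes. The slide was a block, Benjamini-Hochberg adjustment ran over all features, and an adjusted p under 0.05 was the threshold. All differences are late minus early on the log2 scale of normalized signal. Between 15615 and 16737 of the 45281 probes were detected on each of the 8 arrays. Of the 12 listed markers of β-cell identity, 10 were tested and all 10 were detected on all 8 arrays. The summed signal of these 10 ranged from 105200 to 122200 on the late and from 115200 to 124400 on the early arrays. It includes Ins2, which quantile normalization holds at a nearly fixed value, so that this part of the sum could hardly move. Of the 10 markers 3 were lower in late arrays (30%, against 9.12% of all features), and 8 had a negative difference.

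Long induction was accompanied by a broad change. Of the 11819 features, 1319 were higher in the late arrays (11.2%) and 1078 were lower (9.12%), which makes 2397 changed features (20.3%). The median difference was 0.55 (log2) among features called higher and −0.52 among those called lower. Among features called higher 135 differed by more than 2-fold, and among those called lower 78 did. Of the 1319 called higher, 91 were not above background on any early array. Of the 1078 called lower, 13 were not above background on any late array. These passed the detection filter only through the group where they were high, and their adjusted p has to be read with that limit. Before adjustment, 4286 features had a p under 0.05. Late arrays lay above all early arrays for 983 features (8.32%) and below all of them for 954 (8.07%).

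The 4 late arrays were not alike. The 48 hr array of slide 1 lay nearest to the early arrays. It was the lowest of the 4 late arrays for 1088 of the 1319 features called higher (82.5%) and the highest for 907 of the 1078 called lower (84.1%). Without it 3759 features passed, and without 1 of the others the count fell between 639 and 1902. It was 639 without the 72 hr array of slide 1, 649 without the 16 hr array of slide 2, 913 without the 24 hr array of slide 2 and 1594 without the 48 hr array of slide 2. Without the slide as a block 997 features passed. The SD between the 2 slides, as a root mean square over all features, was 0.34 at 48 hr and 0.31 at 72 hr, against 0.23 at 16 hr and 0.22 at 24 hr.

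Genes of the integrated stress response were mostly higher and genes of the secretory pathway mostly lower. In 4 lists of this response, 68 genes were tested, of which 45 were higher (66.2%, against 11.2% of all features) and 3 were lower. In 4 lists of the secretory pathway, 102 genes were tested, and 63 were lower (61.8%, against 9.12% of all features) while 0 were higher. Herpud1, a gene of ER protein disposal that rose, was counted in the stress response lists instead. The plot of list shares shows these 8 lists at its ends. Members and lists were chosen with earlier results of these data known, so that these counts are a description.

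**Figure D1:**
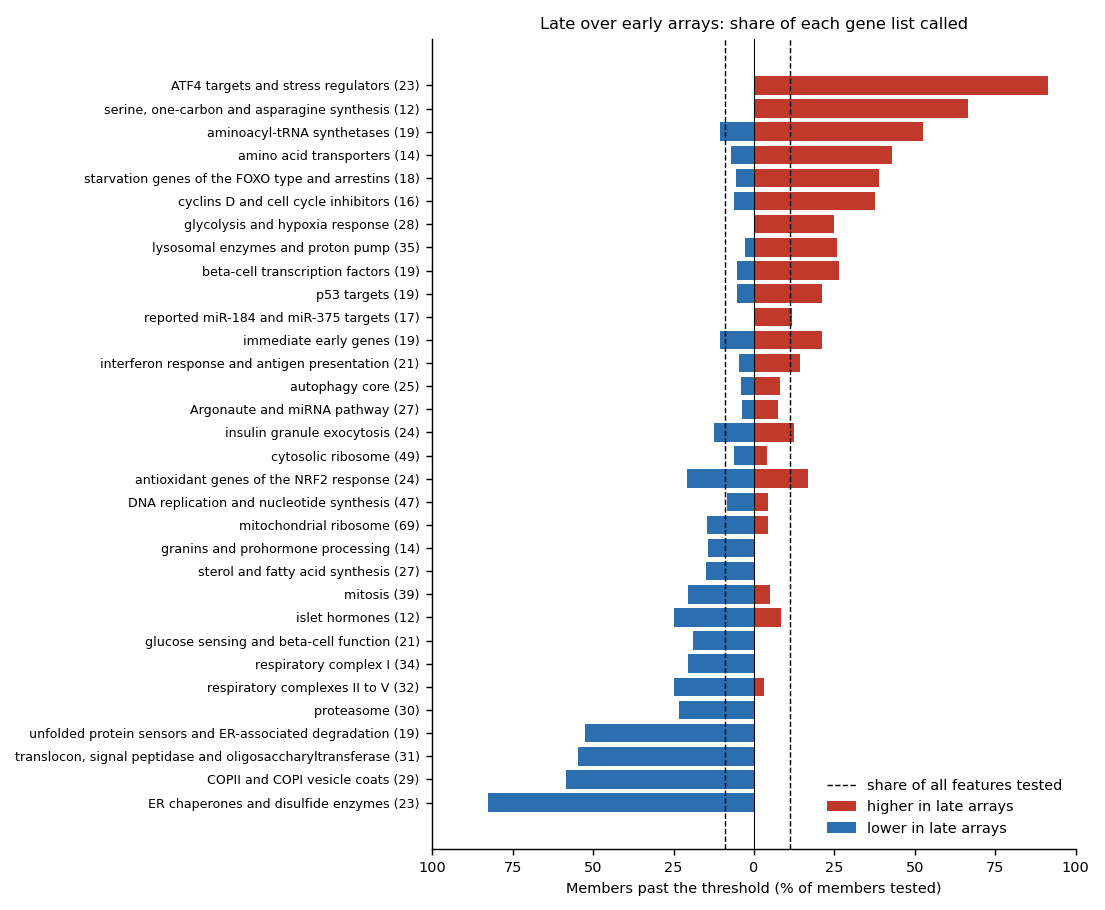
Share of tested members past the threshold in each gene list, higher in late arrays to the right and lower to the left, with the number tested in brackets. Dashed lines mark the shares of all features, 11.2% higher and 9.12% lower, and the ATF4 targets and the ER chaperones lie farthest from them.

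Among 23 tested ATF4 targets and stress regulators, 21 were higher in the late arrays (91.3%, against 11.2% of all features) and 0 were lower. The median difference was 1.40, or 1.32 with the 3 members that were not above background in early cells set at their bound. The median of all features was 0.00. The members not past the threshold were Gadd45a (0.51) and Stc2 (0.38). Trib3, a pseudokinase induced by ATF4, had normalized log2 signals of 10.70 and 13.25 at 48 hr and 13.05 and 13.43 at 72 hr (slides 1 and 2), against 9.89 and 10.13 at 16 hr and 9.88 and 10.75 at 24 hr. The difference was 2.45 (SE 0.39, adjusted p = 0.00545 from limma), and only the 48 hr array of slide 1 reached into the range of the early arrays. Chac1, which encodes an enzyme that cleaves glutathione, had 11.52 and 13.74 at 48 hr and 14.03 and 13.87 at 72 hr, against 11.13 and 11.39 at 16 hr and 11.06 and 11.72 at 24 hr (difference 1.96, SE 0.39, adjusted p = 0.00876 from limma). Here too the 48 hr array of slide 1 lay within the early range. Ddit3 encodes CHOP, a transcription factor of stressed cells that favours cell death, and differed by 1.60 (SE 0.35, adjusted p = 0.0118 from limma). Its 48 hr array of slide 1 stood at 10.455, below the next late array at 12.384. The call of Ddit3 was lost in 2 of 8 fits without 1 array (adjusted p = 0.0522 and 0.0546 from limma) and with robust eBayes.

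Chac1, Ddit3, Nupr1, Atf3 and Atf4 were chosen for their role after their values were seen. Other members that rose were Nupr1 (2.42), a small chromatin protein of stressed cells, and the cell death gene Bbc3 (1.10), which encodes PUMA and whose other 2 probes, each detected on 4 arrays, showed 0.29 and 0.31. Herpud1, an ER membrane protein of protein disposal, rose by 0.94 and Vldlr, a lipoprotein receptor, by 1.41, and for both the late arrays lay above all early arrays. For a gene not above background on any array of a group, the difference is given as a bound against the dimmest level called above background. Jdp2, a repressor of the AP-1 family, was not above background on any early array and was at least 3.11-fold higher in late cells (adjusted p = 0.00545). Atf3, a stress-induced member of the ATF family, was above background on 3 of 4 late arrays and on 0 early arrays, and was at least 2.39-fold higher (adjusted p = 0.0371). Atf4 itself, which is controlled largely through translation, differed by only 0.41 (SE 0.12, adjusted p = 0.0386), and its late arrays overlapped with the early ones. The call of Atf4 was lost in 7 of 8 fits without 1 array (adjusted p = 0.0505 to 0.099 there), without the block (0.111), under median scaling (0.0893), with no filter (0.0546), with no variance trend (0.0651) and by the methods' t-test, the test that the study's methods give for a pair of groups, applied here gene by gene. That of Atf3 was lost in 6 of 8 such fits (0.0566 to 0.132), without the block (0.0752), with no variance trend (0.0544), with robust eBayes (0.134) and by the methods' t-test. Set against the mean of the 4 control arrays, the median of this list was 1.38 in late cells and −0.08 in early cells. All late arrays lay above all 4 controls for 4 of the 23 members, while this held for 9.81% of all features. With the 48 hr array of slide 1 set aside, the other 3 late arrays lay above all early arrays for 22 of the 23 members (18.3% of all features). The count of 21 fell to 14 without the 72 hr array of slide 1 and to 14 without the 16 hr array of slide 2, and was 23 without the 48 hr array of slide 1.

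**Figure D2:**
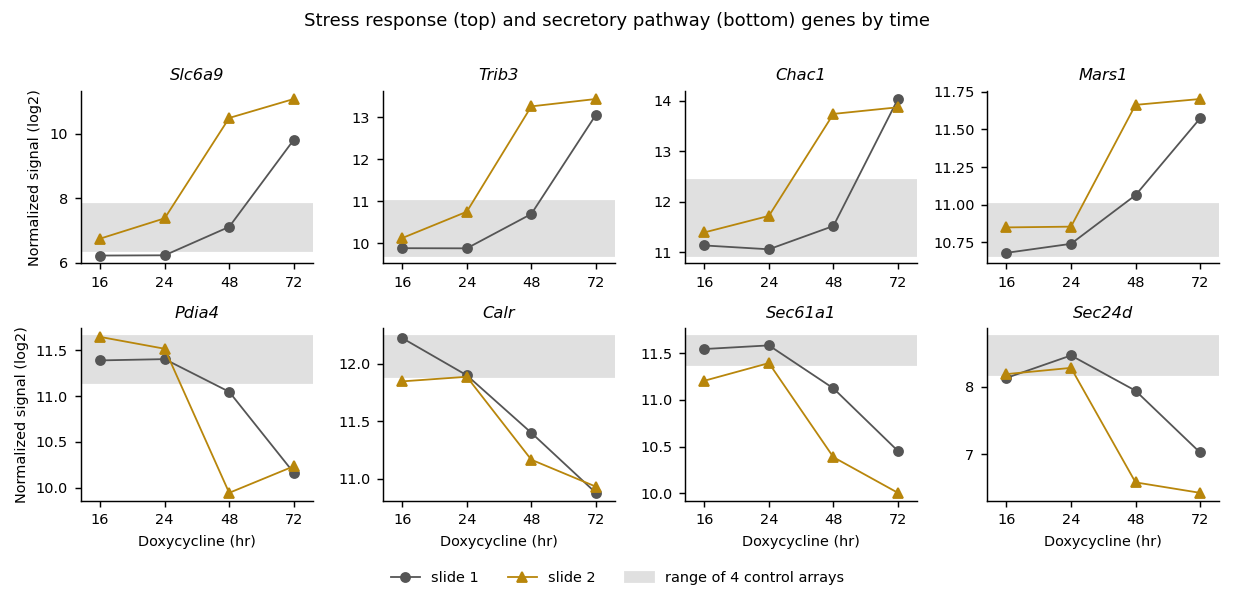
Normalized signal (log2) of 8 genes against hours of doxycycline, with 1 line per slide and a grey band for the range of the 4 control arrays. For the stress response genes Slc6a9, Trib3, Chac1 and Mars1 the 72 hr arrays lie above the band, and for the secretory genes Pdia4, Calr, Sec61a1 and Sec24d they lie below it, while the 48 hr array of slide 1 lies nearer to the band.

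ATF4 binds DNA together with C/EBP proteins at a composite element. The letters TGATGNAA were searched on both strands of RefSeq promoters (GRCm38.p6), 250 bases before to 50 after a gene's start. They occurred in 1219 of 27025 genes (4.51%) and in 196 of 7663 tested genes with a promoter (2.56%). Among genes called higher they were found in 42 of 883 (4.76%), and among genes called lower in 11 of 714 (1.54%). Of the ATF4 targets called higher, 8 of 19 with a promoter held them (42.1%). The shares were 4 of 7 for the called tRNA synthetases (57.1%), 2 of 5 for amino acid transporters (40%) and 1 of 7 for serine, one-carbon and asparagine synthesis (14.3%). A match is a description of the letters and not a binding site. An E2F element and a sterol element were searched in the same way. The E2F element was found in 2.49% of genes called higher and 3.64% called lower, against 3.52% of tested genes with a promoter. For the sterol element these shares were 1.36%, 1.26% and 1.34%. The ATF4 list was drawn up as targets of this factor, so that a high share in it is no independent evidence. The TGATGNAA element is shown in capitals for 5 members that rose, on the strand of the gene, where 3 hold it in the reverse orientation.
Chac1, chr2:119351038-119351067 (plus strand): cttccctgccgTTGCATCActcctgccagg
Nupr1, chr7:126625562-126625591 (minus strand): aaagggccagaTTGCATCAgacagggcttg
Atf3, chr1:191183425-191183454 (minus strand): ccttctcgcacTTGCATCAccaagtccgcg
Jdp2, chr12:85599372-85599401 (plus strand): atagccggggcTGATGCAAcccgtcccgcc
Slc7a11, chr3:50443661-50443690 (minus strand): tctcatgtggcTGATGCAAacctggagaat

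Aminoacyl-tRNA synthetases load amino acids onto their tRNAs, and most but not all that changed were higher. Of 19 tested cytosolic members, 10 were higher (52.6%, against 11.2% of all features) and 2 were lower (10.5%, against 9.12%). The other 7 did not pass, and the median was 0.49. Mars1, the methionyl enzyme, had 11.06 and 11.66 at 48 hr and 11.57 and 11.70 at 72 hr, against 10.68 and 10.85 at 16 hr and 10.74 and 10.85 at 24 hr. All its late arrays lay above the early arrays (difference 0.72, SE 0.11, adjusted p = 0.00545 from limma). Sars (0.99), Yars (0.87), Iars (0.80) and Tars (0.53) also rose, for serine, tyrosine, isoleucine and threonine, and their 48 hr array of slide 1 overlapped with early arrays. The lysyl enzyme Kars and the glutaminyl enzyme Qars fell. Kars had 10.46 and 10.31 at 48 hr and 10.12 and 10.16 at 72 hr, against 10.73 and 10.65 at 16 hr and 10.90 and 10.70 at 24 hr (difference −0.48, SE 0.10, adjusted p = 0.0114), and the groups did not overlap. Qars differed by −0.49 (SE 0.11, adjusted p = 0.0156), also without overlap. The count of 10 fell to 4 without the 72 hr array of slide 1 or the 16 hr array of slide 2, and to 5 without the block.

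Amino acid transporters held the largest difference of the whole comparison. Slc6a9, the glycine transporter GLYT1, had 7.11 and 10.50 at 48 hr and 9.82 and 11.09 at 72 hr, against 6.22 and 6.75 at 16 hr and 6.23 and 7.38 at 24 hr. The difference was 2.98 (SE 0.48, adjusted p = 0.00545 from limma), a 7.91-fold change, and the 48 hr array of slide 1 lay below 1 early array of slide 2. Slc7a11, the cystine and glutamate exchanger, was above background on 3 late arrays and on 0 early arrays and was at least 6.00-fold higher (adjusted p = 0.0103). Slc7a11 was also above background on 3 of the 4 control arrays, with 5.72 to 6.40, below those 3 late arrays. Of 14 tested transporters 6 were higher (42.9%, against 11.2% of all features) and 1 was lower (7.14%, against 9.12%). Their median was 0.66. Slc1a4 (1.84) carries alanine, serine and cysteine, and Slc38a7 (1.15) and Slc38a2 (1.07) carry glutamine and other neutral amino acids. Slc36a1, a lysosomal proton-coupled carrier, was the member that fell (−0.72), and its call was lost in 6 of 8 fits without 1 array. The count of 6 was 4 without the 72 hr array of slide 1 and 8 without the 48 hr array of slide 1.

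Enzymes of serine, one-carbon and asparagine synthesis followed the same direction. Of 12 tested, 8 were higher (66.7%, against 11.2% of all features) and 0 were lower, with a median of 0.80. Gpt2, the mitochondrial alanine transaminase, differed by 2.14 (SE 0.41, adjusted p = 0.00766), with 8.47 and 10.97 at 48 hr and 10.74 and 11.51 at 72 hr, against 8.09 and 8.24 at 16 hr and 8.11 and 8.70 at 24 hr. Aldh1l2 (1.60), Shmt2 (1.56) and Mthfd2 (1.01), enzymes of the mitochondrial folate path, rose with it, and so did Psat1 (0.93) of serine synthesis. For each of these 5 genes the 48 hr array of slide 1 overlapped with early arrays. The count of 8 was 5 without the 72 hr array of slide 1 and 5 without the 16 hr array of slide 2.

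ER chaperones and disulfide enzymes were lower after long induction. Of 23 tested, 19 were lower (82.6%, against 9.12% of all features) and 0 were higher, with a median of −0.71. For 13 of them all late arrays lay below all early arrays (8.07% of all features). Calr, the calcium-binding chaperone calreticulin, had 11.40 and 11.16 at 48 hr and 10.88 and 10.93 at 72 hr, against 12.22 and 11.85 at 16 hr and 11.90 and 11.88 at 24 hr. The groups did not overlap, and the difference was −0.87 (SE 0.12, adjusted p = 0.00409 from limma). Pdia4, a protein disulfide isomerase, had 11.05 and 9.94 at 48 hr and 10.16 and 10.23 at 72 hr, against 11.39 and 11.64 at 16 hr and 11.40 and 11.52 at 24 hr (difference −1.14, SE 0.19, adjusted p = 0.00552 from limma). Txndc11 (−1.13), Pdia5 (−1.05) and Selenom (−0.71), which also belong to the thioredoxin-like proteins of the ER, fell without overlap. Hspa5, the central ER chaperone BiP, was measured by a dim probe that was above background on 2 of 4 late arrays and on all 4 early arrays, and fell by 0.76 (SE 0.14, adjusted p = 0.00731). The 4 members not past the threshold were Dnajb2 (0.07), Sil1 (−0.11), Hsp90b1 (−0.20) and Dnajc10 (−0.27). Set against the 4 control arrays, all late arrays lay lower for 19 of the 23 members (8.95% of all features), and the median against the controls was −0.85 in late and −0.10 in early cells. The count of 19 fell to 11 without the 72 hr array of slide 1, to 11 without the 16 hr array of slide 2 and to 12 without the 24 hr array of slide 2.

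The ER stress element, which ATF6 reads together with the factor NF-Y, was searched as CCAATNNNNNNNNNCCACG on both strands. It is rare, with a match in 37 of 27025 genes (0.137%). Among 7663 tested genes with a promoter it occurred in 11 (0.144%). Of these 11 genes, 9 were called lower, which is 9 of 714 lower genes with a promoter (1.26%). They were Calr, Hspa5, Creld2, Pdia6, Dnajc3, Ero1b, Derl3, Syvn1 and Alg12, a mannosyltransferase of N-glycan synthesis (−0.55, adjusted p = 0.0109). The other 2 were Hsp90b1, which did not pass, and Pan2, a deadenylase subunit that was higher (0.51, adjusted p = 0.0425). The calls of Syvn1 and Pan2 were each lost in 6 of 8 fits without 1 array. Those of Derl3 and Ero1b were lost in 3, that of Dnajc3 in 2 and that of Alg12 in 1. All 11 are named because they hold the element, several of them outside the rule for named genes. The match was found in 6 of 18 called ER chaperones with a promoter (33.3%), in 2 of 10 called genes of ER sensing and disposal (20%), in 0 of 10 called translocon genes and in 0 of 14 called coat genes. ATF6 raises ER chaperones and reads this element, so that the share among them is no independent evidence. The element is shown in capitals on the strand of the gene for 5 members that fell.
Calr, chr8:84847070-84847098 (minus strand): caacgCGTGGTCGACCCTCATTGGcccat
Hspa5, chr2:34772020-34772048 (plus strand): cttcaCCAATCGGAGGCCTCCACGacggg
Creld2, chr15:88819515-88819543 (plus strand): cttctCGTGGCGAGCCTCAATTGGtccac
Pdia6, chr12:17266486-17266514 (plus strand): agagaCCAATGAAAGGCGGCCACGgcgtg
Derl3, chr10:75893237-75893265 (plus strand): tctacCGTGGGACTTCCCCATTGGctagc

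Sensors of unfolded protein and genes of ER-associated degradation fell in part. Of 19 tested, 10 were lower (52.6%, against 9.12% of all features) and 0 were higher, with a median of −0.38. Herpud1, which also serves protein disposal in the ER and rose by 0.94, was counted in the ATF4 list and not here. Edem1 (−1.02) and Edem2 (−0.96), mannosidase-like proteins that mark misfolded glycoproteins, fell without overlap between late and early arrays. Derl2 (−0.66) and Selenos (−0.77) of the retrotranslocation complex and the membrane-bound factor Atf6b (−0.58, SE 0.09, adjusted p = 0.00489) did so too. The sensor kinases did not pass, with Ern1 at 0.47 and Eif2ak3, which encodes PERK, at −0.06, nor did Atf6 (0.09) and Xbp1 (−0.37), all chosen for their role after values were seen. The count of 10 fell to 5 without the 72 hr array of slide 1 and to 6 without the 16 hr array of slide 2.

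The channel through which secretory proteins enter the ER fell with the chaperones. Of 31 tested genes of the translocon, signal peptidase and oligosaccharyltransferase, 17 were lower (54.8%, against 9.12% of all features) and 0 were higher. Their median was −0.41. Sec61a1, the pore of the translocon, had 11.12 and 10.38 at 48 hr and 10.45 and 10.002 at 72 hr, against 11.55 and 11.21 at 16 hr and 11.59 and 11.40 at 24 hr. The groups did not overlap, and the difference was −0.94 (SE 0.15, adjusted p = 0.00545 from limma). Its small partner Sec61g (−0.60), the translocon-associated protein Ssr1 (−0.99) and the oligosaccharyltransferase subunits Ddost (−0.89) and Ostc (−0.77) fell without overlap. The count of 17 was 5 without the 72 hr array of slide 1, 5 without the 16 hr array of slide 2, 7 without the 24 hr array of slide 2 and 11 without the 48 hr array of slide 2.

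Coats of the vesicles that move between ER and Golgi moved in the same direction. Of 29 tested genes of COPII and COPI transport, 17 were lower (58.6%, against 9.12% of all features) and 0 were higher. Their median was −0.49. Sec24d, a cargo adaptor of COPII, had 7.94 and 6.58 at 48 hr and 7.03 and 6.43 at 72 hr, against 8.13 and 8.19 at 16 hr and 8.46 and 8.28 at 24 hr (difference −1.27, SE 0.22, adjusted p = 0.00602 from limma). Its paralog Sec24c (−0.62), the COPI subunit Copz2 (−0.81) and the retrieval receptors Kdelr2 (−0.93) and Kdelr3 (−1.16) fell without overlap, though a dim probe of Sec24c, detected on 2 arrays, showed 0.11. The count of 17 was 8 without the 72 hr array of slide 1, 7 without the 16 hr array of slide 2 and 9 without the 24 hr array of slide 2.

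**Figure D3:**
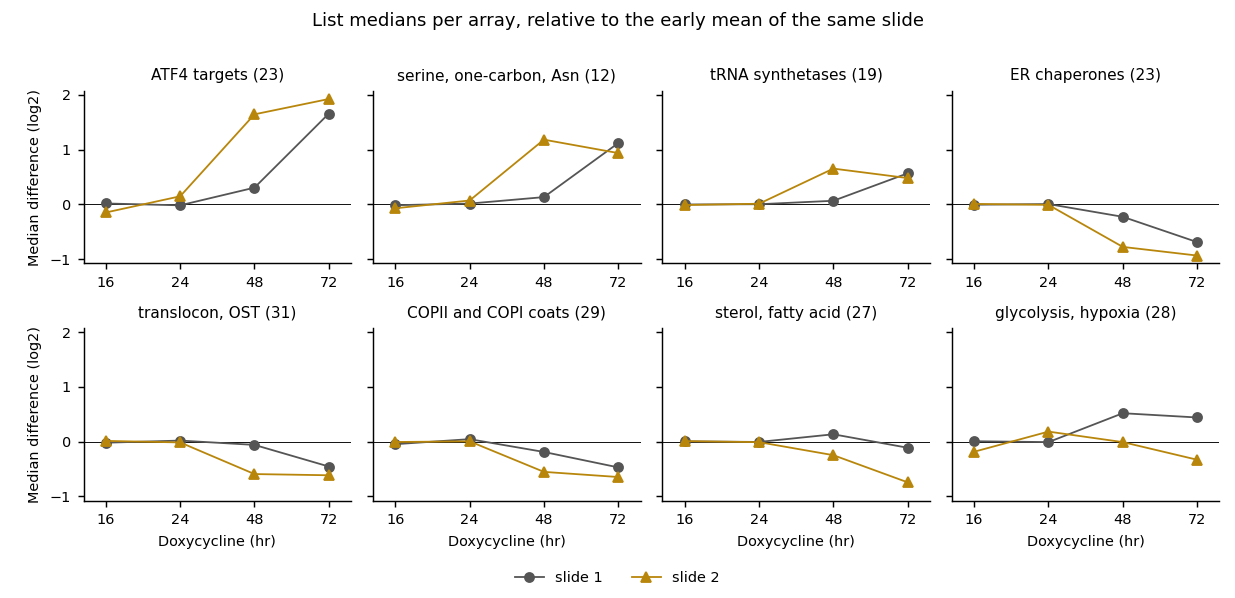
Median difference (log2) of 8 gene lists on each array, relative to the mean of the early arrays of the same slide, against hours of doxycycline, with the number of tested genes in brackets. At 48 hr the ATF4 list stood at 0.31 on slide 1 and 1.65 on slide 2, and at 72 hr at 1.66 on slide 1 and 1.93 on slide 2, and the glycolysis list ended at 0.44 on slide 1 and −0.33 on slide 2.

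The median of glycolysis and hypoxia response genes differed in sign between the 2 slides, while the slide difference passed for 0 features. Of 28 tested genes 7 were higher (25%, against 11.2% of all features) and 0 were lower, with a median of 0.05. The median difference was 0.49 on slide 1 and −0.20 on slide 2. For 16 of the 28 genes the late arrays were higher on slide 1 and lower on slide 2. Ldha, lactate dehydrogenase A, had 10.54 and 10.81 on slide 1 and 9.80 and 8.42 on slide 2 in late cells, against 8.89 and 8.83 on slide 1 and 9.14 and 10.34 on slide 2 in early cells. The difference was thus 1.81 on slide 1 and −0.63 on slide 2. The controls of Ldha ran from 6.35 and 6.48 on slide 1 to 9.15 and 9.88 on slide 2. Pfkl, the liver phosphofructokinase, had a slide difference of 1.27 (0.62 on slide 1 and −0.65 on slide 2), the smallest p of the named genes for that term, and did not pass (adjusted p = 0.344 from limma). Aldoa (0.40 and −0.73) and the glucose transporter Slc2a1 (0.71 and −0.89) moved apart in the same way without passing. Ldha and Slc2a1 were named after their values were seen.

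The 7 called members had the same sign on both slides, as did all 1319 features called higher. Opposite changes on the slides widen the residual of this fit, so that equal signs among called features are no test. Ndrg1, a stress and hypoxia gene, differed by 1.00 (SE 0.13, adjusted p = 0.00261), with 0.88 on slide 1 and 1.13 on slide 2. Vegfa (0.75), a growth factor of blood vessels, the neuronal enolase Eno2 (0.59), the histone demethylase Kdm3a (0.54) and the prolyl hydroxylase Egln1 (0.51) had all late arrays above all early arrays. The count of 7 was 3 without the 72 hr array of slide 1 or the 16 hr array of slide 2. Over all 11819 features the difference between slides passed for 0 features, with 1257 at an unadjusted p under 0.05. With the 4 control arrays in the fit 572 features passed, 437 passed without the 48 hr array of slide 2, and 180 passed without the 72 hr array of slide 1.

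**Figure D4:**
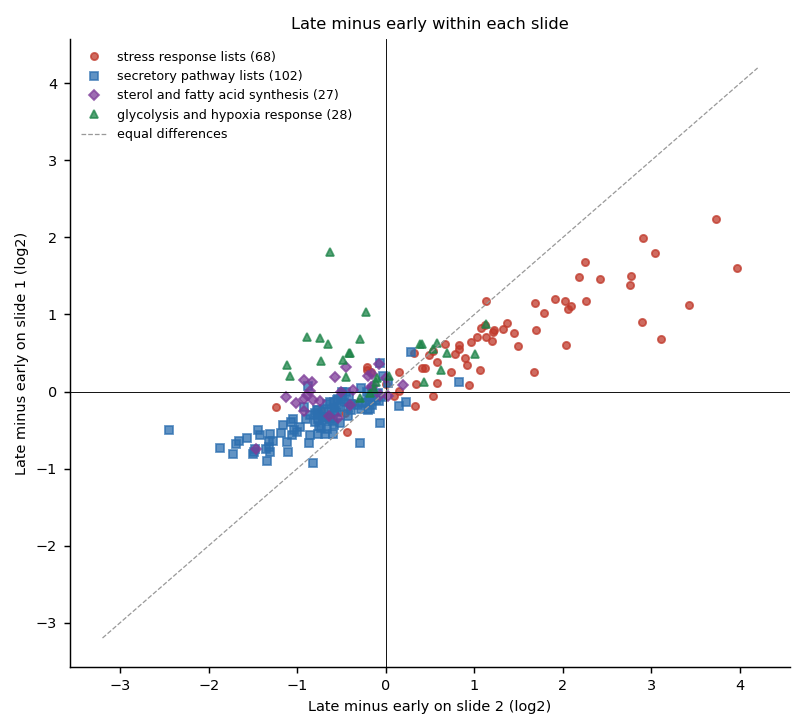
Late minus early (log2) on slide 1 against the same on slide 2 for genes of 4 groups of lists, 1 point per gene. Stress response genes lie mostly in the upper right and secretory genes mostly in the lower left, while 16 of 28 glycolysis and hypoxia genes lie in the upper left.

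The median of sterol and fatty acid synthesis, which feeds membranes, also differed between slides, at −0.01 on slide 1 and −0.54 on slide 2. Of 27 tested genes 4 were lower (14.8%, against 9.12% of all features) and 0 were higher. Mvk, mevalonate kinase, fell by 1.11 (SE 0.27, adjusted p = 0.0185), Ebp, a sterol isomerase, by 0.48, and Srebf2, the regulator of the pathway, by 0.44. Srebf2 lost its call in 5 of 8 fits without 1 array and Mvk in 3. The count of 4 rose to 13 without the 48 hr array of slide 1 and fell to 1 without the 72 hr array of slide 1, the 16 hr array of slide 2 or the 24 hr array of slide 2.

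Of 12 hormone genes 1 was higher and 3 were lower (25%, against 9.12% of all features). Gcg, which encodes glucagon and is expressed in this line, had 13.75 and 13.06 at 48 hr and 12.85 and 11.79 at 72 hr, against 13.99 and 14.07 at 16 hr and 14.09 and 14.08 at 24 hr. The groups did not overlap (difference −1.19, SE 0.27, adjusted p = 0.0140 from limma). Gcg lost its call in 3 of 8 fits without 1 array and with robust eBayes. Nmu, the neuropeptide neuromedin U, was above background on all early and on 0 late arrays and was at least 1.46-fold lower in late cells (adjusted p = 0.00787). It was not above background on any control array. Ins2 was the brightest feature on 11 of 12 arrays, where quantile normalization gives it the same value, so that no difference could be seen. Tph1, the enzyme of serotonin synthesis, had 9.70 and 8.18 at 48 hr and 8.93 and 7.67 at 72 hr, against 10.12 and 10.43 at 16 hr and 10.28 and 10.11 at 24 hr (difference −1.62, SE 0.27, adjusted p = 0.00555 from limma). Tph2, its paralog, had a difference of 0.18 and did not pass.

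Of 19 β-cell transcription factors 5 were higher (26.3%, against 11.2% of all features) and 1 was lower, with a median of 0.19. Of 10 markers of β-cell identity 3 were lower, Mafa and Chga among them (30%, against 9.12%), and 0 were higher. Myt1 (0.64), Glis3 (0.54), Insm1 (0.44), Esrrg (0.41) and Foxa3 (0.34) rose. Foxa3 lost its call in 6 of 8 fits without 1 array, and Glis3, Insm1 and Esrrg each in 4. Mafa, an activator of insulin transcription in mature β cells, fell by 0.74 (SE 0.23, adjusted p = 0.0447), and its 48 hr array of slide 1 overlapped with early arrays. The call of Mafa was lost in 6 of 8 fits without 1 array (adjusted p = 0.0665 to 0.16 there), without the block (0.129), with no filter (0.0571), with no variance trend (0.0607), with robust eBayes (0.0595) and by the methods' t-test. Of 21 genes of glucose sensing and β-cell function 4 were lower (19%), among them the incretin receptors Glp1r (−0.73) and Gipr (−0.48), and 0 were higher. Gipr lost its call in 6 of 8 fits without 1 array and Glp1r in 3. Of 24 genes of granule exocytosis 3 were higher and 3 were lower (12.5% each, against 11.2% and 9.12% of all features). The syntaxin Stx3 stood at 0.69, the calcium sensor Syt7 at 0.61 and the small GTPase Rab3d at −0.62. Rab3d lost its call in 4 of 8 fits without 1 array and without the block. Of 14 granins and prohormone enzymes 2 were lower (14.3%, against 9.12% of all features), Chga (−0.37) and Ptprn2 (−0.67). These small counts were fragile. Without the 72 hr array of slide 1 there were 1 factor higher and 0 sensing genes lower, and the same 2 values were found without the 16 hr or the 24 hr array of slide 2.

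Cell cycle genes changed in small numbers. Of 39 mitosis genes 8 were lower (20.5%, against 9.12% of all features) and 2 were higher, with a median of −0.13. Cdk1, the kinase that drives mitosis, differed by −0.49 (SE 0.09, adjusted p = 0.00764), and the kinetochore protein Spc24 by −0.66. Of 47 genes of DNA replication 4 were lower and 2 were higher, with a median of 0.02, so that the share called was below that of all features (20.3%). Among 16 D-type cyclins, G cyclins and inhibitors 6 were higher (37.5%, against 11.2% of all features) and 1 was lower. The inhibitors Cdkn1c (0.81), which encodes p57, and Cdkn1a (0.48), which encodes p21, rose with late arrays above all early arrays. So did the G cyclin Ccng2 (0.76), while Ccnd2, cyclin D2, fell by 0.28. The call of Ccnd2 was lost in 4 of 8 fits without 1 array, without the block, with no filter and with no variance trend. Without the 72 hr array of slide 1 there were 3 mitosis genes lower and 2 inhibitors and cyclins higher, without the 16 hr array of slide 2 there were 2 of each, and without the 24 hr array of slide 2 there were 2 mitosis genes and 3 inhibitors and cyclins.

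Of 34 complex I subunits of the respiratory chain 7 were lower (20.6%), and of 32 subunits of complexes II to V 8 were lower (25%) and 1 was higher. Of 69 mitochondrial ribosomal proteins 10 were lower (14.5%) and 3 were higher, and of 30 proteasome genes 7 were lower (23.3%), against 9.12% of all features. Their medians lay between −0.16 and −0.07. Ndufa8 (−0.58), an accessory subunit of complex I, and Cox5a (−0.51) of complex IV fell without overlap. Cytosolic ribosomal proteins had a median of 0.00, with 2 of 49 higher (4.08%, against 11.2% of all features) and 3 lower (6.12%, against 9.12%). These counts depended on the array of 48 hr on slide 1, without which 13 complex I subunits, 19 mitochondrial ribosomal proteins and 14 proteasome genes were lower. Without the 72 hr array of slide 1 these counts were 0, 1 and 1, and without the 16 hr array of slide 2 they were 0, 1 and 0. For complexes II to V the count of 8 was 11 without the 48 hr array of slide 1, 1 without the 72 hr array of slide 1, 1 without the 16 hr array of slide 2, 2 without the 24 hr array of slide 2 and 1 without the block.

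Of 35 lysosomal genes tested, 9 were higher (25.7%, against 11.2% of all features) and 1 was lower, with a median of 0.20. Asah1 (0.42), acid ceramidase, and the proton pump subunits Atp6v1c1 (0.34) and Atp6v1g1 (0.30) lay above all early arrays. Atp6v1c1 lost its call in 4 of 8 fits without 1 array and Atp6v1g1 in 5. Lamp2, a protein of the lysosomal membrane, showed 0.48 on its brightest probe, between 0.32 and 0.57 on 3 others and between −0.14 and 0.07 on a further 3. The count of 9 was 14 without the 48 hr array of slide 1, 3 with median scaling in place of quantile normalization, 1 without the 16 hr array of slide 2, 2 without the 72 hr array of slide 1 or the 24 hr array of slide 2, 3 without the 16 hr, 4 without the 24 hr array of slide 1 and 5 without the 48 hr array of slide 2. Of 25 autophagy genes 2 were higher (8%, against 11.2% of all features), Gabarapl1 (0.65) and Sqstm1 (0.52), and 1 was lower. The call of Sqstm1 was lost in 7 of 8 fits without 1 array and also without the block, under median scaling and by the methods' t-test.

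Genes of starvation and growth arrest included the most certain increase. Klhl24, an adaptor of ubiquitin ligases, had 9.41 and 10.63 at 48 hr and 10.14 and 10.68 at 72 hr, against 7.93 and 8.25 at 16 hr and 7.96 and 8.68 at 24 hr. The difference of 2.01 (SE 0.16, adjusted p = 0.000655 from limma) had the smallest p of all features, and another probe of the gene showed 0.72. In this list of FOXO-type and arrestin genes 7 of 18 were higher (38.9%, against 11.2% of all features) and 1 was lower. The count of 7 was 4 without the 72 hr array of slide 1 or the 16 hr array of slide 2, and 11 without the 48 hr array of slide 1. The sestrin Sesn2 (1.40), which senses leucine, and the ubiquitin ligase subunit Fbxo32 (0.91) rose, and Sesn3 fell by 0.78. The call of Sesn3 was lost in 4 of 8 fits without 1 array, without the block and by the methods' t-test, even before adjustment. Among 19 p53 targets 4 were higher (21.1%, against 11.2% of all features), and 9 were without the 48 hr array of slide 1. The 4 were Trp53inp1 (1.25) and, shared with other lists, Bbc3, Sesn2 and Cdkn1a. Among named genes called higher, those most like Klhl24 over the 8 arrays were Sgpl1 (r = 0.992), Gdf1 (0.988), Nr1d2 (0.988), Fnip1 (0.987) and Dpp7 (0.985). These are Pearson correlations over arrays that share slides and times. Genes called in the same direction share the step between periods, so that a high r among them is no test.

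Immediate early genes, whose products answer signals within minutes, gave 4 of 19 higher (21.1%, against 11.2% of all features) and 2 lower. The 4 were 2 without the 72 hr array of slide 1 or the 16 hr or 24 hr array of slide 2. Jun, a subunit of AP-1, had all late arrays above the early ones (1.36, SE 0.23, adjusted p = 0.0057), and Klf6 differed by 0.81. Npas4, an activity-dependent factor of neurons and β cells, was not above background on any early array and was at least 1.50-fold higher (adjusted p = 0.0201). Nr4a2 (−0.57) and Zfp36 (−0.55), which encodes an RNA-binding protein that hastens mRNA decay, fell. Of 21 interferon and antigen presentation genes 3 were higher (14.3%) and 1 was lower, and 0 were higher without any one of those 3 arrays or without the block. Of 24 antioxidant genes 4 were higher (16.7%) and 5 were lower (20.8%, against 9.12% of all features). The higher count was 0 without the 72 hr array of slide 1, 1 without the 16 hr array of slide 2 and 2 without the 24 hr array of slide 2, and the lower count was 3 without any one of these. Those lower included Gpx2, a glutathione peroxidase, with 8.61 and 8.44 at 48 hr and 7.94 and 8.07 at 72 hr, against 9.80 and 9.88 at 16 hr and 9.93 and 9.54 at 24 hr (difference −1.52, SE 0.15, adjusted p = 0.00161 from limma). Gpx2 had the smallest p among decreases. Among named genes called lower, those most like Gpx2 over the 8 arrays were Troap (r = 0.986), Senp3 (0.974), Fen1 (0.968), Srm (0.966) and D630023F18Rik (0.966).

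Ago2, the Argonaute protein that the study examines as a target of miR-184, was higher in late than in early cells. It had 9.31 and 10.05 at 48 hr and 9.61 and 9.97 at 72 hr, against 8.76 and 9.66 at 16 hr and 9.26 and 9.50 at 24 hr. The groups overlapped, slide 2 lay above slide 1 at every time, and the difference was 0.44 (SE 0.13, adjusted p = 0.0322 from limma). Other probes of Ago2 showed 0.17 and 0.27. Ago2 lost the call without the block (adjusted p = 0.188 from limma) and by the methods' t-test, even before adjustment. It also lost the call in 5 of the 8 fits that left out 1 array, with adjusted p between 0.0736 and 0.118. Those were the fits without the 16 or 72 hr array of slide 1 or the 16, 24 or 48 hr array of slide 2. The 4 control arrays of Ago2 had 9.26 to 9.90. Of 17 reported targets of miR-184 and miR-375, 2 were higher (11.8%, against 11.2% of all features) and 0 were lower. The 2 were Ago2 and the lipid phosphatase Inppl1 (0.69, adjusted p = 0.0114 from limma). Of 27 Argonaute and miRNA pathway genes 2 were higher (7.41%) and 1 was lower (3.7%, against 9.12% of all features). These shares were near or below those of all features. Cadm1, an adhesion protein and a target of miR-375, stood at 0.33 and Gphn at 0.32, neither past the threshold, and Elavl4 at −0.01. Slc25a22, Rasd1 and Ago1 were detected on 0 of the 8 arrays. Among genes whose products the study used for normalization, Tbp differed by 0.08 and did not pass, and Tubg1 fell by 0.32 (adjusted p = 0.0443 from limma). Tubg1 lost the call in 7 of 8 fits without 1 array and without the block.

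The largest differences with no overlap belonged to genes of many kinds. Cib3, a calcium-binding protein, had 6.87 and 8.01 at 48 hr and 8.18 and 8.98 at 72 hr, against 5.17 and 5.15 at 16 hr and 4.98 and 5.34 at 24 hr. It was not above background on any early array and was at least 4.41-fold higher in late cells (adjusted p = 0.00161 from limma). Cables1, a partner of cyclin-dependent kinases, was at least 2.73-fold higher and the acyl-CoA thioesterase Acot2 at least 2.48-fold, both from a start below background. Sphk1 (1.95), which makes sphingosine 1-phosphate, Stard5 (1.60), a sterol carrier, the potassium channel subunit Kcnf1 (1.59) and the deubiquitinase Otub2 (1.56) followed with N4bp2l1 (1.86), Arl14ep (1.74) and Gpr137b-ps (1.69). Sgpl1, the lyase that degrades sphingosine 1-phosphate, also rose (1.21, adjusted p = 0.00261). Other probes of these genes showed 0.87 for N4bp2l1, detected on 4 arrays, 0.31 for Arl14ep, detected on 2 arrays, and 0.73 for Sgpl1, detected on 8 arrays.

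**Figure D5:**
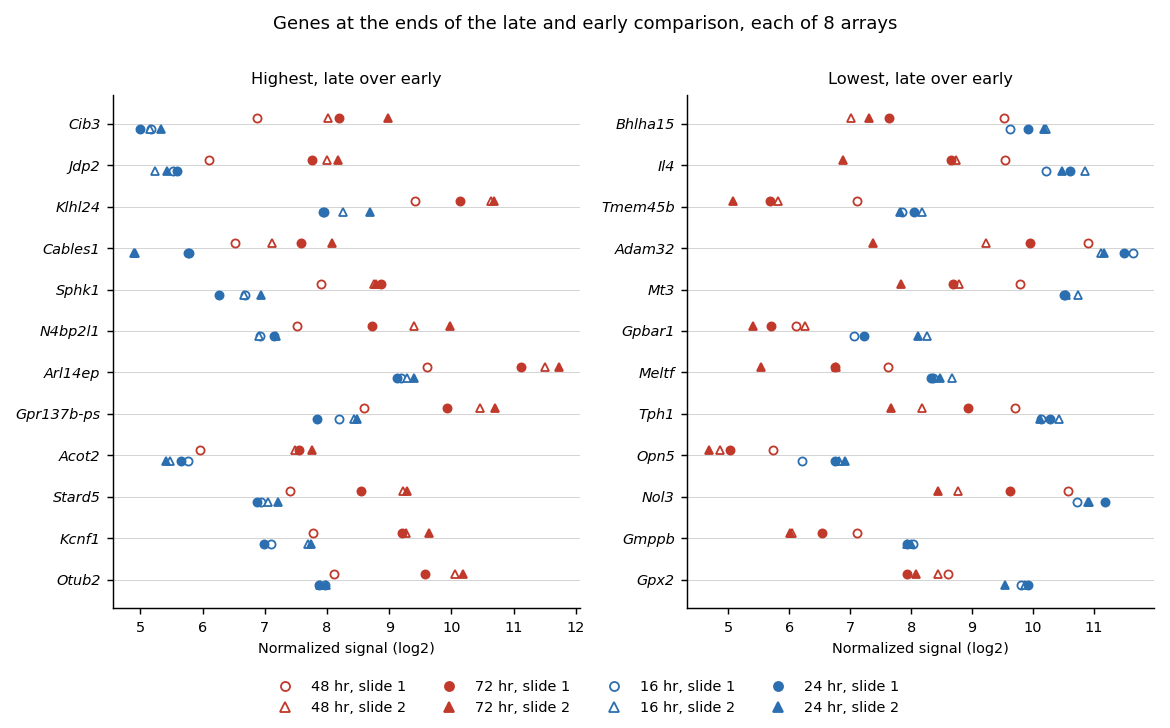
Normalized signal (log2) on each of the 8 arrays for the 12 highest and 12 lowest named genes past the threshold whose late arrays (red) and early arrays (blue) do not overlap. The open red circle, the 48 hr array of slide 1, is often the late array nearest to the blue points.

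Among the lowest, Bhlha15, which encodes MIST1, a transcription factor of secretory cells, had 9.52 and 7.01 at 48 hr and 7.63 and 7.30 at 72 hr, against 9.62 and 10.22 at 16 hr and 9.92 and 10.18 at 24 hr. The difference was −2.12 (SE 0.40, adjusted p = 0.00766 from limma), and the 48 hr array of slide 1 stood only just below the early arrays. Bhlha15 also stands in the list of acinar markers, of which 2 of 14 on the array were tested, and the other was the amylase gene Amy2a5 (0.43), which did not pass. The summed signal of this pair ran from 165.3 to 795.5 on late and from 826.6 to 1223 on early arrays. Il4 (−2.08), Tmem45b (−2.06), Adam32 (−1.99), the metallothionein Mt3 (−1.81), the bile acid receptor Gpbar1 (−1.80), Meltf (−1.79) and Opn5 (−1.59) fell, of which Tmem45b and Opn5 were above background on 1 late array each. Gmppb, which makes the mannose donor of N-glycans, fell by 1.54 (SE 0.18, adjusted p = 0.00261). Nol3 showed −1.57 on its brightest probe, −1.59, −1.30 and −0.52 on 3 others and between 0.04 and 0.35 on a further 3.

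Of 12 markers of other endocrine cells on the array 7 were tested, and 6 were detected on all 8 arrays. Irx2 was higher (0.81, and 0.63 on another probe detected on 5 arrays). Gcg and Tph1 were lower (28.6%, against 9.12% of all features). The summed signal of the 7 ran from 30250 to 50020 on late and from 52500 to 56220 on early arrays. Markers of non-endocrine cell types were sparse. Of 16 fibroblast and stellate markers on the array 0 were tested, of 12 endothelial markers 2, of 13 immune markers 3 and of 11 ductal markers 5. Krt8 of duct cells (−0.69), Coro1a (−0.66) and C1qa (−1.28) of immune cells fell, and Egfl7 of endothelium rose (0.82). The summed signal ran from 4410 to 5838 on late and 5945 to 7015 on early arrays for ductal markers, from 562.5 to 839.2 on late and 800.9 to 1051 on early arrays for immune markers, and from 1037 to 1407 on late and 897.2 to 1083 on early arrays for endothelial markers. Their part in the results was not tested.

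Within the late and within the early period few differences could be resolved. Between 72 and 48 hr 0 features passed in limma, with 931 at an unadjusted p under 0.05 (7.88%), and the smallest adjusted p was 0.626. The median difference from the early arrays was 0.66 at 72 hr and 0.44 at 48 hr among features called higher, and −0.64 and −0.42 among those called lower. The genes with the smallest p for 72 against 48 hr included Cyb5r1 (0.97), Laptm4a (0.78) and Angptl6 (1.12), which were higher at 72 hr on both slides, and Gcg (−1.09), which was lower on both. Without the 48 hr array of slide 2, 58 features passed, and without the 72 hr array of slide 1, 55 passed, where the lone array was assumed to vary like the others. Between 24 and 16 hr 0 features passed, with 127 at an unadjusted p under 0.05 (1.07%). Kdm6b (0.42), a histone demethylase, and Cst3 (−0.35) were among the genes with the smallest p, and neither passed.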

How the data were processed

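Total RNA of MIN6 cells was hybridised to Illumina mouse arrays. Per the labels and methods, the authors exported bead summaries, and the deposited table holds for every array a non-normalized intensity and a detection p-value per probe. A deposited table of intensity values on a linear scale, which the authors quantile normalized with lumi (version not given in the sources used here), served as an alternative after log2 transformation. Intensities were background-corrected with limma's neqc (offset 16) on all 12 arrays, quantile normalized and put on the log2 scale. Probes with a detection p-value under 0.01 on at least 2 of the 8 arrays were kept, and the brightest kept probe stood for a gene. Of 45281 probes 34885 had 1 gene symbol, 18 had several and 10378 had none. Late and early arrays were compared with limma 3.58.1 in R 4.3.3 (linear model with slide as block, eBayes with trend, Benjamini-Hochberg adjustment, threshold 0.05). Figures were drawn in Python 3.11.15 with matplotlib 3.10.9.

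Replicate numbers stand for the slides. Whether they also stand for separate cultures is not stated, so that slide and culture cannot be told apart. Deviations of same-numbered arrays from their time means correlated in all 6 pairs of times (r between 0.275 and 0.555), so that the slide was kept as a block. Scripts were tested on simulated data.

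Gene members and lists were chosen with earlier results of these data known. The text names the 12 highest and 12 lowest named genes past the threshold without overlap, up to 5 members of a list in its main direction and up to 2 in the other, genes of interest to the study, the extremes of the other contrasts and the genes most like that of the smallest p. Genes outside this rule are said to be so or stand beside a count. For a gene not above background on any array of a group, the bound sets the mean of the other group against the mean, per array, of the higher of its own value and the lowest signal above background. Alternatives were the block, the arrays fitted or left out, the background correction, scaling, filter, probe choice and variance model.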

Additional observations from a re-analysis of the deposited data

Results flagged for a closer look

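Of 338 groups of 4 arrays (169 genes, late and early), 29 held 1 array far from the other 3 by a gap that took up most of the group's range (its share in brackets, past Dixon's critical value). Chance flags about 1 in 20 groups. Of the 16 flags in late arrays, 14 were the 48 hr array of slide 1, on the side of the early arrays. They were Acot2 (0.85), Atf4 (0.835), Chac1 (0.883), Ddit3 (0.889), Eno2 (0.862), Fnip1 (0.864), Insm1 (0.931), Krt8 (0.851), Mthfd2 (0.889), Sesn2 (0.831), Slc1a4 (0.831), Sphk1 (0.884), Trib3 (0.861) and Yars (0.878). Sil1 was high on the 48 hr array of slide 2 (0.883), and Ins2 was below its common ceiling on the 72 hr array of slide 2 alone (1). Of the 13 flags in early arrays, the 16 hr array of slide 1 stood apart for Calr (0.86), Rab3d (0.88), Sec61g (0.868), Sesn3 (0.896) and Syvn1 (0.889), and the 16 hr array of slide 2 for Dnajc3 (0.844), Elavl4 (0.946) and Mt3 (0.886). The 24 hr array of slide 1 stood apart for Ccnd2 (0.863) and Ndufa8 (0.898), and that of slide 2 for Lamp2 (0.915), Mthfd2 (0.868) and Vldlr (0.937).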

How the results depend on the processing

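Without the replicate block 997 features changed, 546 higher and 451 lower, against 2397 with it. Array weights gave 4282 (2237 higher and 2045 lower). The methods' t-test after Benjamini-Hochberg adjustment gave 1 (0 higher and 1 lower), and unadjusted it gave 2949, and 345 for 72 against 48 hr. Testing every kept probe gave 3425 changed (1672 lower). Including the control arrays, which then shared a slide gap with the early arrays, gave 572 features for the slide difference of late arrays. Leaving out 1 array gave 639 to 3759 changed features, 379 to 1990 higher, 260 to 1769 lower, 0 to 58 for 72 against 48 hr and 0 to 437 for the slide difference. Normalizing the 8 arrays together and then dropping the 48 hr array of slide 1, an alternative chosen after seeing the data, gave 3761 (1992 higher and 1769 lower). The other alternatives, 12 arrays, 4 time groups, other background corrections, scalings, filters and variance models and the deposited normalized values, gave 1838 to 2782 changed features. The cause was not tested.

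Of the named genes other than Irx2, 146 passed the threshold. They gave 3631 values under the alternatives, of which 3244 still passed, 387 did not and 0 changed sign. The call was lost for 26 of the 146 without the block, 45 without the 16 hr array of slide 2, 42 without the 72 hr array of slide 1 and 146 by the methods' t-test after adjustment. Among 23 genes that did not pass, 36 of 573 values passed and 20 changed sign. With array weights Cst3 stood at 0.030, Eif2ak3 at 0.033 and Pfkl at 0.068, and joint normalization without the 48 hr array of slide 1 gave 0.028 for Cst3. Leaving out 1 array gave −0.112 to 0.065 for Cst3, −0.129 to 0.005 for Eif2ak3, −0.181 to 0.185 for Pfkl, −0.078 to 0.068 for Elavl4, −0.354 to 0.217 for Slc2a1, −0.333 to 0.040 for Aldoa and −0.065 to 0 for Ins2. The number of arrays limits the precision, and Ins2 stood at the ceiling of the scale.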
